A study of Mus musculus with 18 samples.

Results

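Cytoplasmic RNA of tibialis anterior (TA) and soleus myofibers was compared on 6 arrays, 3 for each muscle, out of 18 arrays in the series. The series measured the nuclear and the cytoplasmic RNA of EDL, soleus and TA fibers on Agilent single-channel mouse arrays that carry probes for coding genes and for long non-coding RNAs. All fibers came from untreated female CD1 mice (an outbred strain) of 3 months. Each array held the RNA of a pool of 5 to 10 fibers. Mouse 5 gave fibers to TA 1 and TA 2 and also to soleus 2, so the pools were not all from separate animals, and p-values measure the spread between pools. The other mice were 1 for TA 1, 2 for TA 2, 9 alone for TA 3, 3 and 4 for soleus 1, 6 for soleus 2, and 7 and 8 for soleus 3. The members were set by the labels, with earlier results of these data already known. The 3 EDL cytoplasm arrays are quoted beside the comparison because they share a slide with soleus.

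Soleus is a postural muscle rich in slow (type 1) fibers, which burn fatty acids in many mitochondria. TA and EDL are fast muscles that flex the ankle and extend the toes, and their fibers rely more on glycolysis. Each fiber class assembles its sarcomere from its own isoforms of myosin, troponin, tropomyosin and of the calcium pump SERCA, and the myosin heavy chain isoform gives a fiber type its name: Myh7 marks type 1, Myh2 type 2A, Myh1 type 2X and Myh4 type 2B.

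Of these markers, Myh7 and Myh4 separated the muscles in the direction of the labels, but the 3 TA arrays were not alike. In the test described below Myh4 and Myh1 did not pass, and Myh2 was lower in TA. The log2 intensity of Myh7 was 14.08, 14.78 and 14.12 on the soleus arrays and 7.53, 9.69 and 8.23 on the TA arrays. That of Myh4 was 13.78, 13.45 and 13.40 in TA and 11.59, 7.29 and 7.36 in soleus, so soleus 1 was far nearer to TA than the other soleus pools. TA 1 lay on slide 1 with all soleus and EDL cytoplasm arrays. TA 2 lay on slide 4 with the TA nuclei, and TA 3 lay on slide 3. Across 40355 probes with a value on all 6 arrays, Pearson's r was 0.968 between TA 2 and TA 3, but 0.927 and 0.910 between TA 1 and these. Among soleus arrays r ran from 0.940 to 0.961, with soleus 2 in both lower pairs. The labels call all mice female, but of 6 Y-linked genes Ddx3y was well above background on soleus 3, TA 3 and EDL 3 (6.50, 6.37 and 7.24), as was a probe for Ssty2, and on no other cytoplasm array. The other 4 did not follow this: Ssty1 was well above background on all 9 cytoplasm arrays, Eif2s3y on 7, and Uty and Kdm5d on none. Ddx3y was between 7.16 and 7.34 on the TA nuclei arrays and between 5.67 and 5.84 on the soleus nuclei arrays. Xist, made by the inactive X chromosome, was at 2.43 on soleus 3 and at 7.24 on TA 3. In nuclei it was between 8.54 and 8.67 for TA and between 10.76 and 10.92 for soleus.

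TA 2 and TA 3 carried a set of transcripts that were much lower on TA 1, and many of them also on soleus and EDL. Cdh15, the M-cadherin of myoblasts and satellite cells, was at 6.60 on TA 1, at 12.53 on TA 2 and at 11.55 on TA 3, and between 6.49 and 7.00 on the soleus arrays. Mymk, which encodes the fusion protein myomaker, was at 5.91, 10.98 and 8.99 on TA 1, 2 and 3. Rrm2, a subunit of ribonucleotide reductase made during DNA synthesis, was at 4.11, 10.24 and 11.08. These 3 genes were also high on the 3 TA nuclei arrays, with Cdh15 between 11.88 and 12.19 there and between 6.76 and 6.89 in soleus nuclei. In lists drawn up after these values were seen, both TA 2 and TA 3 exceeded TA 1 by at least 2 (log2) for 9 of 17 myoblast and early myotube genes, 10 of 24 cell cycle genes and 9 of 16 genes of the cytoskeleton and of S100 proteins. Over all probes with a value on the 3 TA arrays the share was 2.75%. Both TA 2 and TA 3 exceeded TA 1 and every soleus and EDL array for 7, 12 and 11 genes of these lists. For that count the share over all probes was not computed. Myh3, the embryonic myosin heavy chain, was at 3.53, 9.54 and 7.22 on TA 1, 2 and 3, but also at 9.00, 9.50 and 7.52 on the soleus arrays. What these transcripts contribute to the differences below was not tested, and slide and pool cannot be told apart for TA 2 and TA 3. For the genes described at most length below, the TA arrays are therefore given singly.

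**Figure D1:**
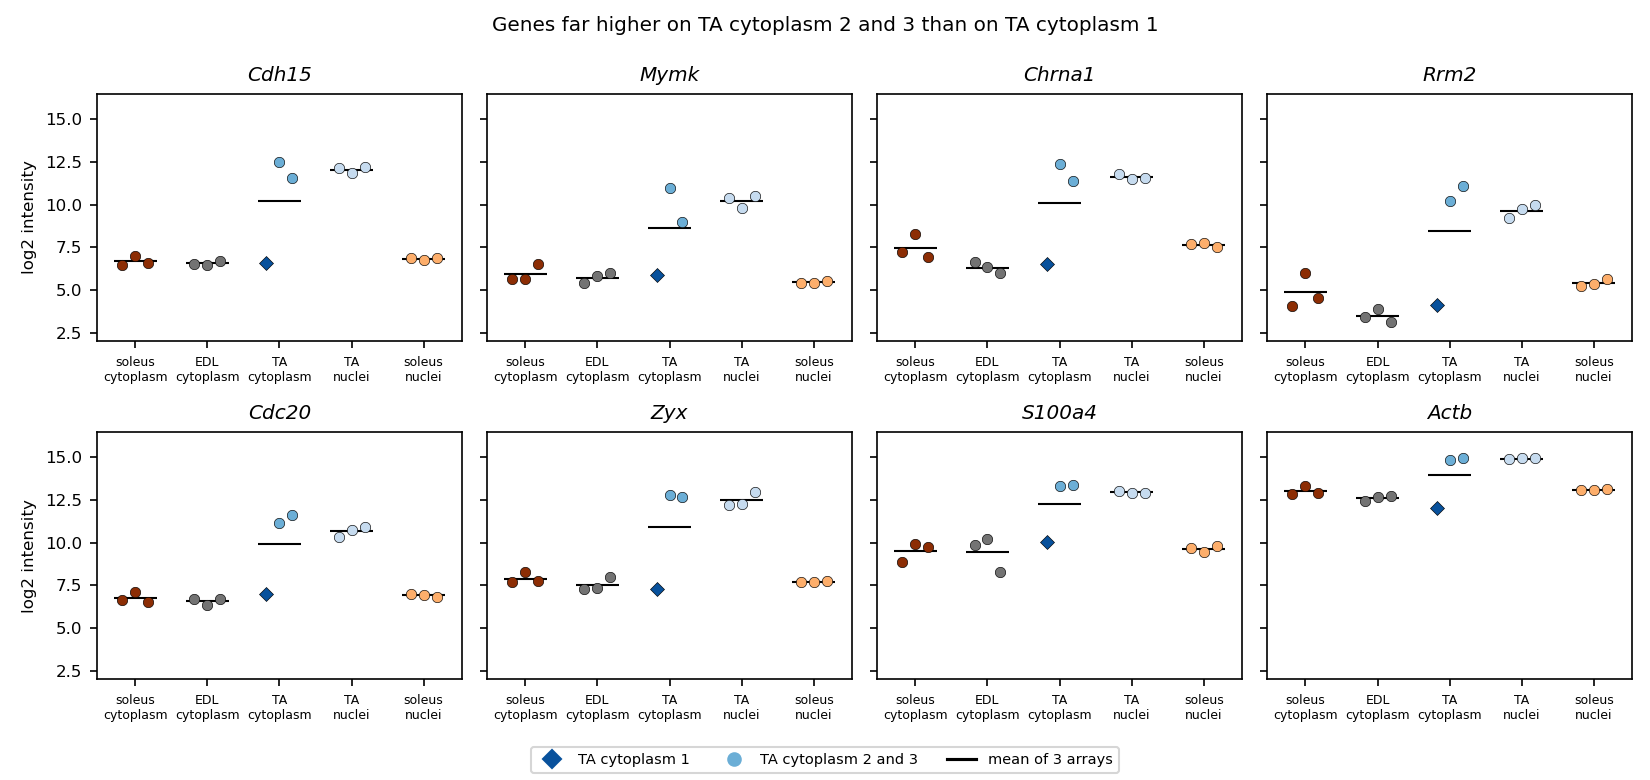
Log2 intensity (vertical axis) of 8 genes on single arrays (points) of soleus, EDL and TA cytoplasm and of TA and soleus nuclei, with the mean of 3 arrays as a line. TA cytoplasm 1 (diamond) sat with soleus and EDL, while TA cytoplasm 2 and 3 sat with the TA nuclei. The genes were chosen after their values were seen.

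Of 45660 probes tested, 317 (0.694%) passed limma's moderated test at an adjusted p of 0.05. In TA, 264 were lower (0.578% of those tested, 248 genes or regions) and 53 were higher (0.116%, 51 genes or regions). With no scaling between arrays the share that was higher went from 16.7% to 36.6%. None of these 317 probes had a TA value inside the soleus range. That absence of overlap also held for 13.1% of all probes on the lower side and for 17.4% on the higher side. TA 1 was at least 1 (log2) below the soleus mean for all 263 lower probes that it measured, and above it for all 45 higher probes that it measured, as the test favours probes on which the TA arrays agree. The number of calls depended on which array was left out. It was 135, 27 and 113 without soleus 1, 2 and 3, and 4730, 30 and 42 without TA 1, 2 and 3. The higher calls depended on it most: they were 23, 1 and 10 without soleus 1, 2 and 3, and 2374, 0 and 0 without TA 1, 2 and 3. With normexp background correction 17 probes were higher and 265 lower. Within slide 1, where TA 1 was set against soleus with EDL giving part of the spread (7 arrays, an alternative added after seeing the data), 48 probes passed (0.105% of those tested), and 37 of them were among the 317, all in the same direction. The EDL mean lay between those of TA and soleus for 246 of 263 lower probes and for 44 of 52 higher probes. These probes were selected for a gap between TA and soleus, which favours such a position of EDL. The share over all tested probes was not computed, so no conclusion on EDL is drawn from these counts.

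The slow contractile genes were the group with the most members lower in TA. Of 17 tested, 10 were lower and none was higher, and the median difference was −3.70 (log2) against 0.20 over all probes. Myl2, the slow regulatory light chain of myosin, stood at 14.83, 15.12 and 14.63 on the soleus arrays and at 7.24, 6.72 and 6.87 on the TA arrays. All 3 TA pools were thus far below soleus, by 7.91 ± 0.32 (log2, SE), a 241-fold difference (adjusted p = 6.42e-05). Its probe lay at chr5:122556732-122556791 (mm9). EDL fibers were intermediate at 12.27, 12.08 and 10.53.

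Myl3, the slow essential light chain, was at 14.78, 15.33 and 14.79 in soleus and at 8.71, 8.36 and 8.31 in TA. It was 91.2-fold lower in TA (difference −6.51 ± 0.33, adjusted p = 0.000199). Myoz2, a Z-disc protein that binds calcineurin, was at 10.62, 10.86 and 10.92 in soleus. In TA it was at 3.46 and 4.29 on arrays 1 and 3 and had no usable signal on array 2, so the difference of −6.93 ± 0.40 rests on 2 TA values (adjusted p = 0.000679). Myoz2 was well above background on 1 TA array only, and over the alternative settings its difference ran from −7.35 to −4.31.

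Tpm3, the slow tropomyosin, was 5.29 ± 0.37 lower by its brightest probe (adjusted p = 0.000763), with 9.74, 8.87 and 8.80 in TA and 14.28 to 14.73 in soleus. Another Tpm3 probe differed by −4.36, and the last, at 0.17, did not pass. Tnnc1, the troponin C of slow and cardiac muscle, was 3.64 ± 0.42 lower, with TA values from 9.26 to 10.58 and soleus values from 13.06 to 13.88. The M-band protein gene Myom3 differed by −4.14, the stress-responsive Csrp3 and Ankrd2 by −3.89 and −3.87, Fhl1 by −3.45 and Actn2, the Z-disc actinin shared by all fibers, by −3.24, while a dimmer Actn2 probe, at −0.51, did not pass. In each of these 5 genes all TA pools were below all soleus pools.

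Slow troponin T and I divided the TA pools. Tnnt1 was at 14.64, 15.02 and 14.69 in soleus, at 7.70 on TA 1, and at 12.90 and 11.65 on TA 2 and TA 3. Tnni1 was at 13.18, 13.47 and 12.49 in soleus, at 6.58 on TA 1, and at 12.02 and 9.43 on TA 2 and TA 3. Neither passed over the 6 arrays (Tnnt1 −4.04 ± 1.09, adjusted p = 0.105; Tnni1 −3.70 ± 1.10, adjusted p = 0.124). Against TA 1 alone, within slide 1, the differences were −7.09 for Tnnt1 and −6.47 for Tnni1. A block for slide 1 against the other slides in the 6 arrays makes the same contrast. It held TA 2 and TA 3 as 1 block, though they lay on slides 4 and 3. Whether Tnni1 passed differed between these fits, and both rest on 1 TA array.

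**Figure D2:**
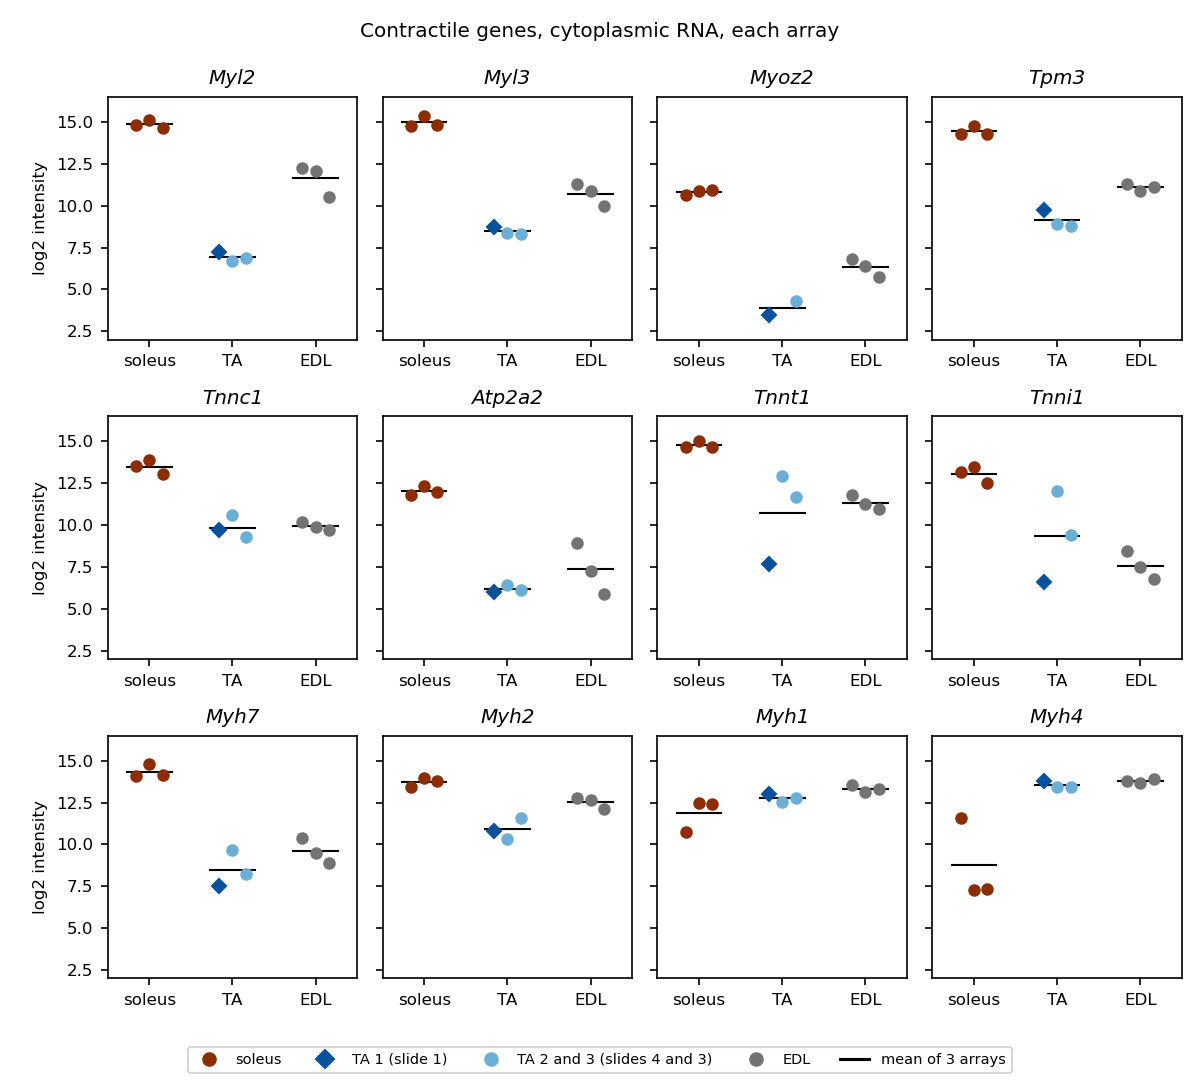
Log2 intensity (vertical axis) of 12 contractile genes on single arrays (points) of soleus, TA and EDL cytoplasm, with the mean of 3 arrays as a line; TA 1, on the slide of soleus and EDL, is a diamond. Myl2, Myl3, Myoz2, Tpm3, Tnnc1 and Atp2a2 were low on all TA arrays with a value, Tnnt1 and Tnni1 were low mainly on TA 1, and Myh4 was high in TA and on soleus 1.

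The sequences before the start sites of 4 of these slow genes are shown because their transcripts were lower together in TA. They are the 4 with the largest decrease among those with 1 start in the RefSeq table (GRCm38.p6), and each holds the 250 bases before the start, written along the gene's strand. Capitals mark matches to the MEF2 box, to the CArG box (the site of serum response factor), to the MCAT element CATTCC on either strand, and to TATAAA on the gene's strand.
Myoz2, chr3:123034988-123035237, minus strand: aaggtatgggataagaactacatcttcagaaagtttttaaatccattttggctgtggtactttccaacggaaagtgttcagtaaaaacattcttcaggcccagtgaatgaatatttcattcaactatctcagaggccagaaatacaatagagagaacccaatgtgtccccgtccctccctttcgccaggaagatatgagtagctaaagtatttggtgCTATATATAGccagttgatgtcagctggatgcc
Myl3, chr9:110763428-110763677, plus strand: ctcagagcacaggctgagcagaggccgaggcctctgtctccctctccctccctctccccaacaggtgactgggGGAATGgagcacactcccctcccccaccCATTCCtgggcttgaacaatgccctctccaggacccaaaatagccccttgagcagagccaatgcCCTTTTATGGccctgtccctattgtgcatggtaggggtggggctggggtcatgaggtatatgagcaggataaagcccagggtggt
Myom3, chr4:135759465-135759714, plus strand: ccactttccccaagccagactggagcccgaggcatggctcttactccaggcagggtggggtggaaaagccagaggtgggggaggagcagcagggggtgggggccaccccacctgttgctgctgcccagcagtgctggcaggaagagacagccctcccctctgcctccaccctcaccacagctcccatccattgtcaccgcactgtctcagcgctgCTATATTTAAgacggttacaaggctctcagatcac
Ankrd2, chr19:42035777-42036026, plus strand: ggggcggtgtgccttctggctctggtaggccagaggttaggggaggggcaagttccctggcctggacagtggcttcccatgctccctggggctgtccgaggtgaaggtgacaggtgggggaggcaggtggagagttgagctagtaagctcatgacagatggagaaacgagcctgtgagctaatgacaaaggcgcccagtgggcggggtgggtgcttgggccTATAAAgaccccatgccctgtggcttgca

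The MEF2 box began 33 bases before the start in Myoz2 and 35 bases before it in Myom3. Myl3 held a CArG box that began 85 bases before the start and 2 MCAT elements, at 177 and 149 bases. Ankrd2 held TATAAA at 29 bases. Over all 27025 first promoters of the table, the MEF2 box was found in 3.0%, the CArG box in 1.4%, CATTCC in 12.6% and TATAAA in 8.1%. Among the 10 slow contractile genes that were lower in TA, the MEF2 box, the CArG box and CATTCC were each found in 2. The E-box CANNTG, searched in the same windows, was found in all 10 and in 66.0% of all promoters. Of the 248 genes or regions lower in TA, 177 had a promoter in the table. Among these the MEF2 box was found in 6.2%, the CArG box in 4.5%, CATTCC in 14.7%, TATAAA in 4.0% and the E-box in 59.3%. AGGTCA, the half-site of nuclear receptors, was found in 2 of the 10, in 9.6% of the 177 and in 13.8% of all promoters. Of the 51 genes or regions higher in TA, 18 had a promoter, with the CArG box in 5.6% and the MEF2 box in 0.0%. These are matches of letters only.

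Among the 11 myosin heavy chains tested, 4 were lower in TA and none was higher, with a median difference of −0.53. The slow chain Myh7 was 57.4-fold lower (−5.84 ± 0.54, adjusted p = 0.00426), and its probe lay at chr14:55589581-55589640 (mm9). The adjoining probe, at chr14:55589521-55589580 and annotated as LOC674761, gave the largest decrease of all, from 13.75, 14.46 and 13.76 in soleus to 3.83, 6.08 and 4.86 in TA (−9.06 ± 0.54, adjusted p = 0.000486). Myh7b, an ancient relative of the slow chain, was at 12.28, 12.43 and 12.16 in soleus and at 7.69, 7.41 and 7.56 in TA (−4.74 ± 0.30, adjusted p = 0.000537).

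Myh6, the cardiac alpha chain, is nearly identical to Myh7 and lies beside it, so its 2 probes may not report separate transcripts. The brighter differed by −1.99 ± 0.34 and the other by −5.58 (adjusted p = 0.0443 and 0.00187). Myh2, the type 2A chain, was at 13.46, 14.00 and 13.79 in soleus and at 10.83, 10.32 and 11.60 in TA, and it was lower in every TA pool (−2.83 ± 0.40, adjusted p = 0.0243). The EDL values, 12.75, 12.66 and 12.13, lay between.

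The chains of the fastest fibers did not pass. Myh4 was 4.80 ± 0.99 higher in TA on average, with no overlap, but soleus 1 was at 11.59 (adjusted p = 0.0679), and the difference was 5.04 for TA 1. Myh1 was at 13.00, 12.55 and 12.78 in TA and at 10.77, 12.48 and 12.39 in soleus (0.90 ± 0.48, adjusted p = 0.291). Of 16 fast contractile genes, none was higher in TA and 1 was lower, with a median difference of 0.05. The exception was Myot, a Z-disc protein not particular to fast fibers, which was at 10.77, 10.82 and 10.26 in soleus and at 8.33, 7.22 and 8.31 in TA (−2.66 ± 0.40, adjusted p = 0.0313).

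The fast troponins were abundant in both muscles. Tnnc2 was between 14.89 and 15.19 in soleus and between 14.78 and 15.16 in TA, and Tnni2 was between 15.03 and 15.08 in soleus and between 14.97 and 15.26 in TA. Actn3, the actinin of fast fibers, was at 12.69, 11.55 and 11.17 in TA, but soleus was split, with 12.66 on soleus 1 against 8.98 and 8.39 on the others (1.79 ± 0.98, adjusted p = 0.300). Soleus 1 thus stood near TA for Myh4 and Actn3 and kept soleus levels of Myh7, Myl2 and Myl3.

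Among 28 genes of calcium release and uptake, 2 were lower in TA and none was higher. Atp2a2, the SERCA pump of slow fibers, was at 11.77, 12.31 and 11.98 in soleus and at 6.01, 6.41 and 6.15 in TA, a 56.7-fold difference (−5.83 ± 0.32, adjusted p = 0.000293). The TA pools were close to each other here, while EDL spread from 5.86 to 8.92. Casq2, the slow calsequestrin that stores calcium in the reticulum, was at 8.22, 8.58 and 8.77 in soleus and at 5.56, 6.92 and 5.91 in TA (−2.39 ± 0.41, adjusted p = 0.0444).

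Sarcolipin, an inhibitor of SERCA, again split the TA pools: Sln was at 10.64, 12.16 and 11.44 in soleus, at 9.02 on TA 1, and at 3.56 and 2.92 on TA 2 and TA 3 (−6.25 ± 1.35, adjusted p = 0.0751). It was well above background on 1 TA array only. Pvalb, the calcium buffer of fast fibers, was at 15.90, 15.41 and 15.12 in TA and at 14.76, 12.90 and 11.44 in soleus (2.45 ± 0.72, adjusted p = 0.122).

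Several genes of fat use were lower in TA. Of 35 genes of fatty acid uptake and oxidation, 5 were lower and none was higher, and the median difference was −1.13. Acadl, the long-chain acyl-CoA dehydrogenase of mitochondrial beta-oxidation, was at 8.85, 8.54 and 8.38 in soleus and at 5.03, 4.46 and 5.80 in TA (−3.49 ± 0.40, adjusted p = 0.0122). Plin5, which coats lipid droplets at mitochondria, differed by −2.82 ± 0.32, with TA values from 6.27 to 6.78 and soleus values from 9.08 to 9.52.

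Acsl1, which activates fatty acids, differed by −2.45 ± 0.39 (adjusted p = 0.0349). Lpl, the lipase that frees fatty acids from lipoproteins, was at 11.36, 11.30 and 11.39 in soleus and at 8.47, 9.02 and 9.54 in TA (−2.34 ± 0.36, adjusted p = 0.0327). Hadhb, a subunit of the trifunctional protein, was just past the threshold (−1.75 ± 0.31, adjusted p = 0.0497). The transporter Cd36 (−2.12, adjusted p = 0.0509) and the binding protein Fabp3 (−1.90, adjusted p = 0.0613) were just outside it. Against TA 1 alone, within slide 1, Acadl differed by −3.56 and Lpl by −2.88. Whether they passed differed between the fits that make this contrast, which rest on 1 TA array.

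Of 30 genes of the citric acid cycle and pyruvate use, 2 were lower and none was higher, with a median of −0.71. Idh2, the mitochondrial NADP-linked isocitrate dehydrogenase, was at 12.95, 13.19 and 13.07 in soleus and at 9.96, 9.51 and 9.93 in TA (−3.27 ± 0.31, adjusted p = 0.00471). Pdk1, a kinase that holds back pyruvate dehydrogenase, differed by −1.98 ± 0.30. The creatine kinase of mitochondria, Ckmt2, was between 10.33 and 11.35 in TA and between 12.73 and 13.03 in soleus (adjusted p = 0.0566). Of 97 subunit genes of the respiratory chain none passed. Their median difference was −0.49, and 83 of them were below 0. For 81 cytosolic ribosomal protein genes the median was 0.07 and none passed.

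Glycolysis and glycogen genes were not, as a list, separated. Of 34 tested, 1 was lower, none was higher, and the median was 0.35. That gene was Ldhb, the lactate dehydrogenase subunit of oxidative tissue, at 11.67, 12.25 and 11.94 in soleus and at 8.15, 7.28 and 8.06 in TA (−4.12 ± 0.36, adjusted p = 0.00374). Gpd1, the cytosolic glycerol-3-phosphate dehydrogenase, was at 11.85, 11.16 and 10.96 in TA and at 9.95, 9.76 and 9.16 in soleus, with no overlap, but did not pass (1.70 ± 0.38, adjusted p = 0.0783).

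The listed gene that was higher in TA was Slc16a3, the transporter MCT4 that exports lactate. It stood at 11.57, 11.03 and 11.71 in TA and at 9.81, 8.99 and 8.87 in soleus, with EDL at 11.49, 11.16 and 11.76. TA exceeded soleus 4.64-fold (2.21 ± 0.38, adjusted p = 0.0443), and its probe lay at chr11:120820023-120820082 (mm9). It was the only one of 19 genes of oxygen and pH handling that passed. Mb, myoglobin, was between 12.15 and 12.79 in TA and between 13.97 and 14.54 in soleus (−1.70 ± 0.34, adjusted p = 0.0631).

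**Figure D3:**
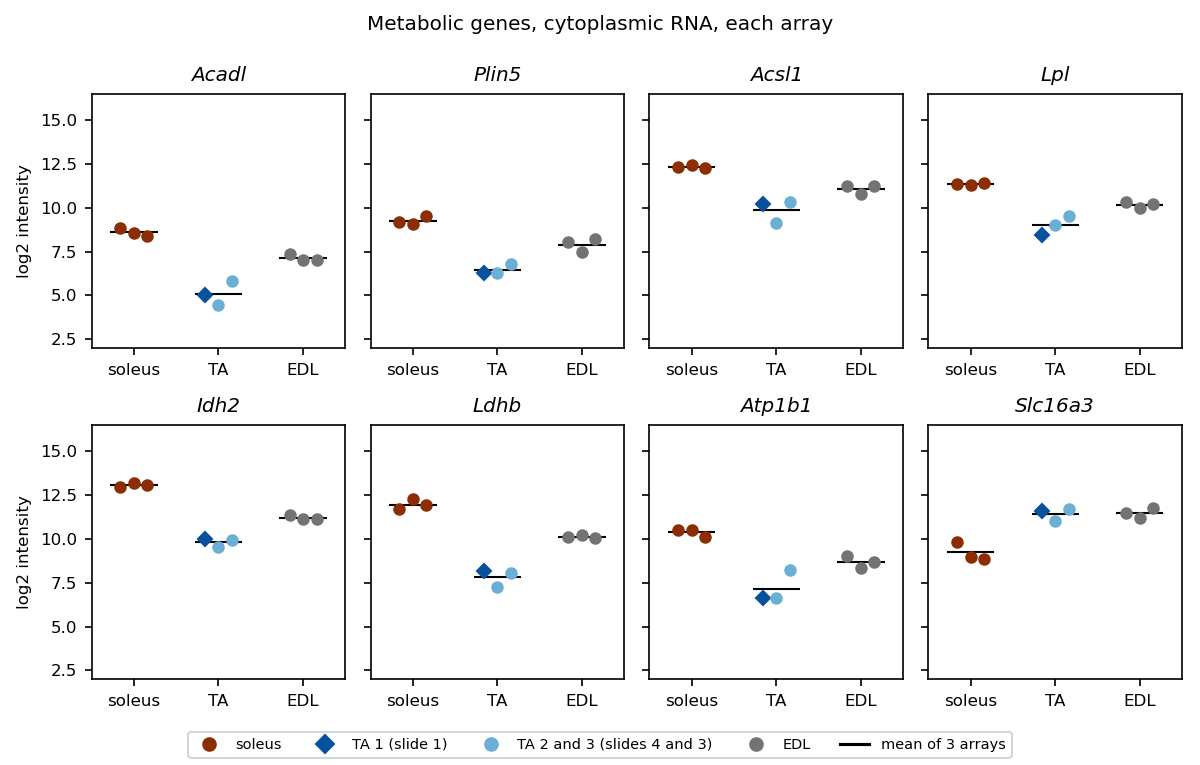
Log2 intensity (vertical axis) of 8 genes of metabolism and ion transport on single arrays (points) of soleus, TA and EDL cytoplasm, with the mean of 3 arrays as a line; TA 1 is a diamond. In 7 genes all TA points lie below all soleus points, and Slc16a3 is the reverse, with TA and EDL at like levels.

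Of 52 fiber type regulators, 6 were lower in TA and none was higher (median −0.42). Prox1, a homeobox factor of slow fibers, was at 7.69, 8.28 and 7.10 in soleus and at 5.30, 5.11 and 3.99 in TA (−2.89 ± 0.46, adjusted p = 0.0359). Esrrb, an estrogen-related receptor, was at 8.71, 9.26 and 8.37 in soleus and at 5.58, 5.88 and 5.81 in TA (−3.02 ± 0.35, adjusted p = 0.0122), and a dimmer probe for the same gene, at a difference of 0.70, did not pass. Rcan1, a calcineurin inhibitor that calcineurin itself induces, differed by −3.58 ± 0.42, with 7.40, 6.09 and 6.54 in TA and 9.79 to 10.64 in soleus.

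Fnip1, a folliculin partner that acts on AMPK, differed by −3.18 ± 0.39 and Eya2, a transcriptional cofactor, by −2.54 ± 0.33. The Eya2 values of EDL were nearer to soleus than to TA, at 8.36 to 8.97. Tbx1, a T-box factor, was at 10.12, 9.46 and 9.89 in TA and at 8.60, 8.30 and 7.49 in soleus, with no overlap, but did not pass (1.69 ± 0.39, adjusted p = 0.0819).

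Each of the next lists had 1 member that was lower. Atp1b1, a subunit of the sodium pump, was at 10.47, 10.52 and 10.12 in soleus and at 6.60, 6.63 and 8.24 in TA (−3.22 ± 0.47, adjusted p = 0.0285), out of 26 genes of membrane excitability. Lmod2, an actin nucleator of thin filaments, was at 9.02, 9.44 and 9.11 in soleus and at 3.93, 2.35 and 5.53 in TA (−5.25 ± 0.68, adjusted p = 0.0178), out of 22 sarcomere genes shared by fiber types, whose median was −1.04. Lmod2 was well above background on 1 TA array only, and over the alternative settings its difference ran from −6.53 to −2.92. No member passed among 21 genes of atrophy and proteolysis, 17 of limb position, 12 myogenic factors and 13 lncRNAs of the study. In the last list, H19 was between 12.98 and 13.87 in TA and between 14.10 and 14.79 in soleus (−0.98 ± 0.36, adjusted p = 0.171), and Pvt1 was between 7.47 and 8.51 in TA and between 7.17 and 7.70 in soleus (0.49 ± 0.37, adjusted p = 0.437).

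**Figure D4:**
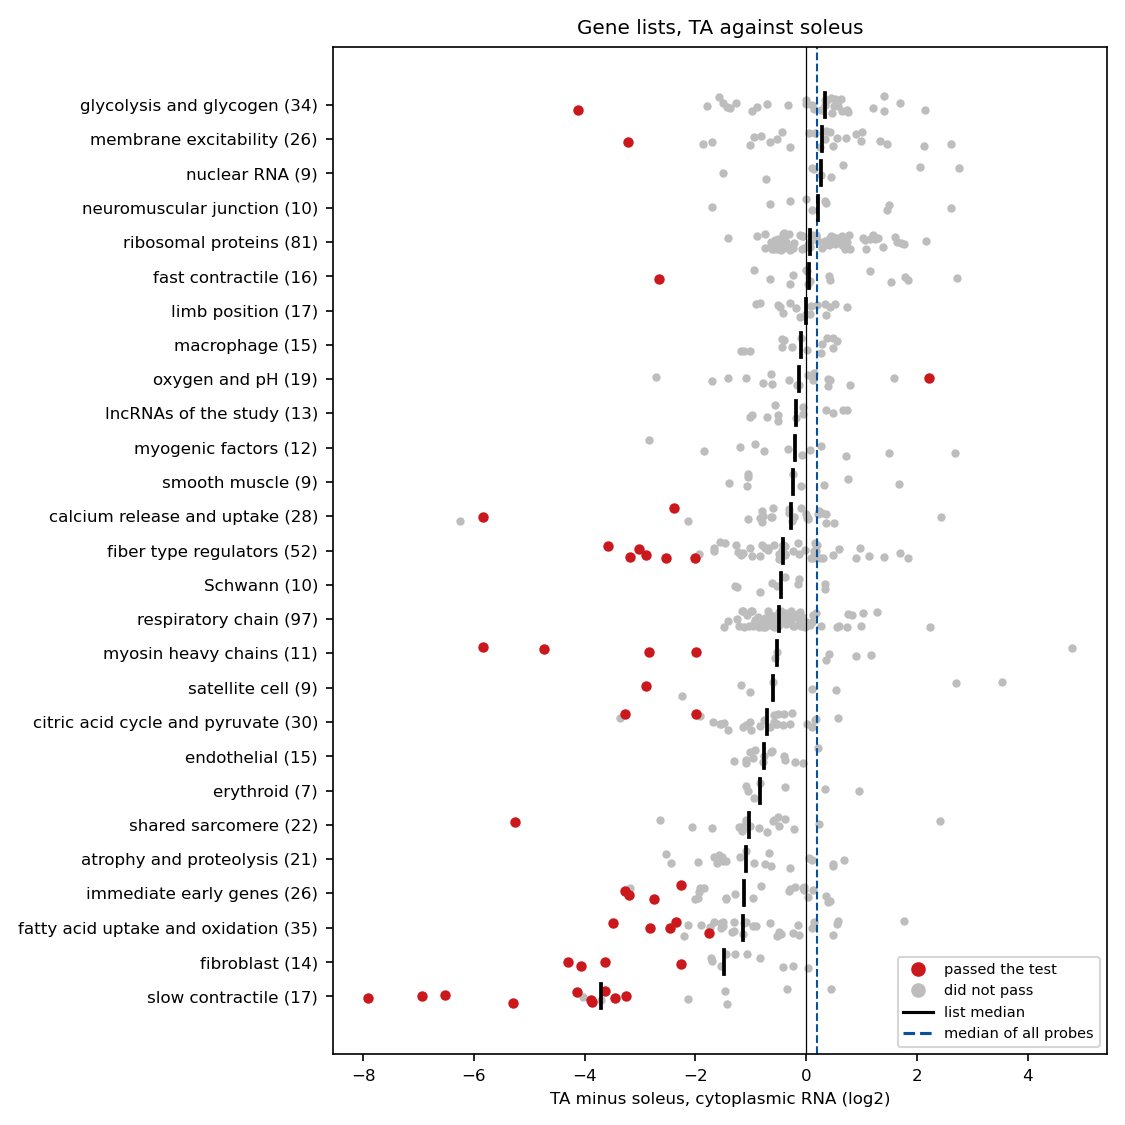
TA minus soleus in cytoplasmic RNA (log2, horizontal axis) for each tested gene (points) of 27 lists, with the number tested in brackets. Red points passed limma's test, black bars are list medians and the dashed line is the median of all probes, 0.20. The slow contractile list has the lowest median, at −3.70.

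Tendon and matrix transcripts were among those lower in TA. Of 14 fibroblast genes, 4 were lower and none was higher, with a median of −1.49. Tnmd, the tendon membrane protein tenomodulin, was at 8.35, 8.33 and 8.10 in soleus and at 4.60, 3.98 and 3.33 in TA (−4.29 ± 0.38, adjusted p = 0.00388). The matrix protein periostin, Postn, differed by −4.06 ± 0.47, fibromodulin, Fmod, by −3.63 ± 0.35 and collagen Col1a1 by −2.25 ± 0.38. The summed level of the fibroblast list was between 15.2 and 15.7 (log2) on the soleus arrays and between 14.4 and 15.0 on the TA arrays.

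In a pool of fibers, fewer cells of a type and less RNA per cell cannot be told apart. No marker passed among 15 endothelial, 10 Schwann cell, 15 macrophage, 7 erythroid, 9 smooth muscle and 10 neuromuscular junction genes. The summed Schwann cell level was between 10.66 and 11.01 in soleus and between 9.97 and 10.05 in TA. That of smooth muscle was at 12.2 on TA 1 but at 14.3 and 13.9 on TA 2 and TA 3, against 12.5 to 12.8 in soleus. The summed endothelial level was between 12.9 and 13.5 in soleus and between 12.4 and 12.8 in TA, and the erythroid one between 14.3 and 15.5 in soleus and between 13.9 and 14.2 in TA. The macrophage sums overlapped. The neuromuscular junction sum was at 11.9, 13.0 and 12.3 on TA 1, 2 and 3 and between 11.7 and 12.1 in soleus. Of 9 satellite cell genes, Chodl was lower (−2.88 ± 0.40, adjusted p = 0.0243), though it was well above background on 1 TA array only. The summed level of the 9 genes was at 12.8 on TA 1 but at 14.4 and 13.7 on TA 2 and TA 3, against 13.4 to 13.7 in soleus. The part of these cells in the results was not tested.

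Of 26 immediate early genes, 4 were lower in TA and none was higher, with a median of −1.12. Fos was at 10.34, 9.81 and 9.62 in soleus and at 7.69, 6.77 and 5.70 in TA (−3.21 ± 0.50, adjusted p = 0.0349). Btg2, an antiproliferative gene, differed by −3.26 ± 0.47 and the phosphatase gene Dusp1 by −2.25 ± 0.29. Zfp36, which destabilises AU-rich mRNAs, differed by −2.74 ± 0.44 on 2 TA values, and was well above background on 1 TA array only. EDL values of Fos, from 9.29 to 9.96, and of Dusp1, from 9.52 to 9.99, were nearer to soleus than to TA. None of 9 RNAs that stay in nuclei passed, and their summed level was between 11.7 and 11.9 in soleus and between 11.5 and 11.9 in TA.

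Outside the lists, the coding probes with the largest decrease in TA, after LOC674761, were those of Pcp4l1 (−5.47 ± 0.43, adjusted p = 0.00187), Comp and BC048679. Pcp4l1, related to the calmodulin-binding protein Pcp4, was at 9.65, 10.13 and 10.06 in soleus and at 5.18, 4.63 and 3.63 in TA. Comp, a matrix protein of cartilage and tendon, was at 10.48, 11.05 and 12.10 in soleus and at 6.82, 6.36 and 6.03 in TA (−4.81 ± 0.46). Kera, a proteoglycan of connective tissue, was between 9.79 and 10.80 in soleus and at 7.13, 6.68 and 3.75 in TA (−4.57 ± 0.79). BC048679 was not well above background on any TA array. Soleus exceeded TA 27.9-fold by measured signal, and over the alternative settings the difference ran from −5.07 to −2.03 (log2).

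Genes with roles in fibers followed. Tbc1d4, the Akt substrate AS160 that gates glucose transporter traffic, was at 9.77, 9.65 and 9.29 in soleus and at 5.92, 5.83 and 4.99 in TA (−3.99 ± 0.37, adjusted p = 0.00426), while its other probe differed by −2.07 and did not pass. Nnt, the transhydrogenase that makes mitochondrial NADPH, was at 10.99, 11.29 and 10.89 in soleus and at 7.13, 6.84 and 7.46 in TA (−3.91 ± 0.33, adjusted p = 0.00255), by the brightest of its 3 probes, while the others were dim in both muscles. The scaffold gene Homer2 differed by −3.88 for 1 of 2 probes (the other, at −0.50, did not pass), Smtnl1 by −3.83, the potassium channel gene Kcnma1 by −3.79 for 1 of 3 probes, Crispld1 by −3.73 and Lgi1 by −3.67. The TA pools were uneven for Smtnl1, at −3.10 for TA 1 and −4.20 for the mean of TA 2 and TA 3, and for Lgi1, at −2.42 and −4.29. These Kcnma1 and Lgi1 probes were well above background on 1 TA array only, and Crispld1 on none.

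The probes that were higher in TA were mostly dim. Of the 53, 44 were not well above background on any soleus array, 25 were coding and 21 were lincRNA regions. Ropn1l, a protein of sperm tails and cilia, led the coding probes. It was at 6.55, 8.39 and 7.88 in TA and at 3.06, 3.90 and 4.36 in soleus, 14.2-fold higher by measured signal. Over the alternative settings its difference ran from 1.64 to 4.59 (log2). LOC100046616 was at 7.28, 8.37 and 9.45 in TA and at 5.19, 4.79 and 5.72 in soleus (3.13 ± 0.54, adjusted p = 0.0443). For Dxo, Mb21d2, Cpt1c, Myo15b, Ccdc28b, Rabl2, Gprin2, S1pr4, Dnmt3b and Carns1 the folds ran from 6.51 (Dxo) to 4.29 (Carns1), with the faintest soleus values raised as described below. For 4 of these genes the remaining probes did not pass. Ccdc28b had a brighter probe at 9.61 in TA and 9.43 in soleus, and the other Cpt1c probe differed by 0.69. The other Dnmt3b probes differed by 0.03 and 0.61, and the other Myo15b probes by −0.83, 0.25 and 1.10. Carns1, the enzyme that makes carnosine, was at 5.82, 5.94 and 6.24 in TA, at 4.50, 3.57 and 3.64 in soleus and at 6.38 to 6.64 in EDL.

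Of 13255 probes for lincRNA regions, 21 were higher and 15 were lower, and of 1493 for annotated lncRNAs 1 passed in each direction. Of 25542 coding probes 25 were higher and 237 were lower, and over all probes the shares were 0.116% and 0.578%. Probes for lincRNA regions thus passed less often than all probes on the lower side, but not on the higher side. The median difference of the lincRNA probes was 0.34 against 0.10 for coding probes. Gm5532 was at 7.22, 7.67 and 7.57 in soleus and not well above background in TA. There it had a value on 2 arrays only (16.2-fold lower by measured signal), while 2 other Gm5532 probes did not pass. The pseudogene Ldhb-ps, whose sequence resembles Ldhb, differed by −4.29 ± 0.40, so the signal of its parent on this probe cannot be told apart from its own.

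Among lincRNA regions (mm9) the largest decrease was in chr16:43623581-43642715_R. It was at 6.20, 6.24 and 5.14 in soleus and at 2.82, 2.45 and 3.39 in TA (7.85-fold lower by measured signal). Of 10 probes tested for that region 3 passed. The brightest of the named regions that were lower, chr4:86267450-86277650_F, was at 7.30, 8.52 and 7.91 in soleus and at 5.62, 5.46 and 5.38 in TA (−2.42 ± 0.38, adjusted p = 0.0346), by 1 of its 5 probes. Of those that were higher, chr6:83368261-83407280_R was at 5.86, 6.25 and 6.51 in TA and at 3.65, 3.14 and 3.93 in soleus. It was 6.22-fold higher by measured signal, by 1 of its 4 probes. For chr4:129497990-129515290_F (5.73-fold higher with the faintest soleus values raised), 7 other probes of the region did not pass.

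The muscle difference was also compared between fractions, over 12 arrays, as TA minus soleus in cytoplasm less TA minus soleus in nuclei. Of 41366 probes tested, 553 passed (1.34%). That fit treats the arrays as independent, but the cytoplasm and nuclei arrays of one number shared mice for soleus 1, 2 and 3 and for TA 1 and TA 2. With these mice as a block (10 arrays, an alternative added after seeing the data) limma called 0 probes, with 6922 at an unadjusted p under 0.05, against 488 calls for the same arrays with no block. With the replicate number as a block it called 24. Dusp1 differed by −2.25 in cytoplasm and by −0.47 in nuclei (limma's adjusted p = 0.0142 for the difference of −1.78 ± 0.23, and 0.158 with the mouse block). Fnip1 differed by −3.18 in cytoplasm and by −1.34 in nuclei. The brighter Myh6 probe differed by −1.99 in cytoplasm and by −4.71 in nuclei, while the fraction difference of the other Myh6 probe, 1.35, did not pass (adjusted p = 0.160). The count was 0 when soleus nuclei 1 or 3 was left out, and the TA and soleus nuclei lay on separate slides.

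The array-by-array view sorted the genes named above by how the TA pools agreed. For Myl2 the difference from soleus was −7.62 for TA 1 and −8.06 for the mean of TA 2 and TA 3. For Atp2a2 it was −6.01 and −5.74, and for Slc16a3 2.35 and 2.15. For Sln it was −2.40 and −8.17, and for Cdh15 −0.08 and 5.36. The median over all probes was 0.34 for TA 1 and 0.09 for TA 2 and TA 3.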

How the data were processed

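Nuclear and cytoplasmic RNA of myofiber pools was hybridised to 18 Agilent arrays, 1 colour each. The deposited scanner files came from Agilent Feature Extraction (10.7.3.1), which subtracts background and removes spatial trends from spot intensity but leaves arrays unscaled against each other. A smaller deposited table, with intensity quantile-normalized by the authors for 3668 probe names, served as an alternative. For the results above, intensity was log2-transformed. Control spots, outlier spots and those lacking the positive and significant flag were dropped. All 18 arrays were then quantile-normalized as 1 set, and replicate spots were averaged to 55681 probe names. The flag, the normalization and the averaging follow the authors' methods, which do not mention leaving out outlier spots.

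A model with 2 group means was fitted to the 6 arrays with limma 3.58.1 in R 4.3.3 (lmFit and eBayes, prior degrees of freedom 5.05), using probes measured on at least 2 of 3 arrays per group. P-values are 2-sided and adjusted by Benjamini and Hochberg over every probe tested, with a threshold of 0.05. The fraction comparison fitted 4 group means to 12 arrays, and as an alternative 10 arrays with the mice shared between fractions as a block. The functions were tested on simulated data. The number of arrays limits the precision.

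Members and gene lists were chosen with earlier results of these data known. The brightest probe stands for a listed gene. Values of some listed genes are not reported here. Outside the lists, up to 12 coding and 6 non-coding probes per direction, 1 for each gene or region, were named, by size of change, if they passed the threshold, did not overlap between muscles and were well above background on all 3 arrays of the brighter muscle. Where no array of the dimmer muscle was well above background, its values were raised before the fold was taken. Per array with a value, the dimmer level was raised at least to the faintest signal that the scanner flagged as well above background. Values already above that level were left as measured. Such a fold is thus not a strict lower bound, and some alternative settings gave smaller ones. Gene names came from RefSeq (GRCm38.p6), by accession for 26419 probe names, by symbol for 3993 and by synonym for 826, and the others kept the array's name. Probe positions are those of the files (mm9). Same-numbered TA and soleus arrays did not deviate together (r of deviations 0.12, −0.04 and −0.14), so replicate numbers were not used as pairs.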

Additional observations from a re-analysis of the deposited data

Results flagged for a closer look

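The muscle difference itself differed between the fractions for 553 probes, by limma's test of that difference over 12 arrays. Cytoplasm and nuclei arrays shared mice for soleus 1, 2 and 3 and for TA 1 and 2, and with these mice as a block 0 probes passed (6922 at an unadjusted p under 0.05). With the replicate number as a block 24 passed. None of the values below passed with the mouse block. Among the genes named above, the difference of differences (TA minus soleus, cytoplasm less nuclei, log2) was −1.78 for Dusp1, −1.84 for Fnip1 and 2.71 for the brighter Myh6 probe, while the other Myh6 probe, at 1.35, did not pass. It was 2.65 for Gprin2, 2.11 for Mb21d2, 2.70 for Myo15b and 2.23 for Rabl2. These 4 were dim in soleus cytoplasm and differed by −0.45, 0.57, −0.27 and 0.04 in nuclei. Among lincRNA regions it was 2.93 for chr11:119794849-119803349_R, 1.96 for chr4:129497990-129515290_F, −1.79 for chr4:86267450-86277650_F and 1.88 for chr6:83368261-83407280_R. TA and soleus nuclei were hybridised on separate slides, so slide and muscle cannot be told apart in nuclei.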

How the results depend on the processing

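All 79 genes and regions that passed and met the rule for naming kept their direction under each of the 25 alternatives that gave a value for them. None passed in all of them. No TA value of these probes lay inside the soleus range. Alternatives that use the same values, or part of them, therefore could not reverse a direction, so no support is drawn from its being kept there. The 317 calls became 146 with no filter on positive and significant signal, 205 with outlier spots kept, 2204 in a fit of the 9 cytoplasm arrays, 13788 in one of all 18 arrays and 17541 with array weights. Leaving out an array gave between 27 and 4730 calls. With slide as a block, which sets TA 1 against soleus, 16 passed, and in the 7 arrays of slide 1, added after seeing the data, 48 did. Without soleus 2 and TA 1, also added, the count was 4680. The methods describe a t-test with permutation for single fast and slow fibers. That t-test, here with p-values from the t distribution, gave 1 call with Bonferroni and 8 with Benjamini-Hochberg adjustment. For the nuclear and cytoplasmic arrays the methods name Statistical Analysis of Microarray, which was not run here. The deposited matrix gave 0 by limma, with 760 of its 3668 probes at an unadjusted p under 0.05. With the replicate number as a block the count was 3118 and all 79 passed; the pairing check gave no reason to use it. For the difference between fractions, 553 became 16521 with no scaling, between 0 and 1923 when an array was left out, and 24 with the replicate block. With the mice shared between fractions as a block, added after seeing the data, it was 0, against 488 for the same 10 arrays with no block; such a block rests on shared animals, and 6922 probes had an unadjusted p under 0.05. The count of 0 by limma came without soleus nuclei 1 and again without soleus nuclei 3, with 5554 and 5525 probes at an unadjusted p under 0.05. Normexp correction gave 282 calls, and scaling to the 75th percentile gave 361. With no scaling the median difference of all probes was 0.47 against 0.20. Tnni2 and Tnnc2, which did not pass, changed sign. Tnni2 was at −0.13 with 75th percentile scaling. Tnnc2 was at 0.10 with no scaling, 0.0276 with spots well above background only, 0.0032 with outlier spots kept, 0.18 with array weights, 0.0727 both with the slide block and in the 7 arrays of slide 1, and 0.0472 without soleus 2 and TA 1, and leaving out an array gave −0.0796 to 0.11. The cause was not tested. Signal near background limits the probes that were higher in TA.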
